A study of Mus musculus with 8 samples.

Results

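Levels of 10 heat shock chaperone transcripts were followed across 8 RNA-seq libraries of mouse brown adipose tissue, 4 from controls and 4 from mice lacking Adcy3 in adipocytes. The 10 genes, Hspa1a, Hspa1b, Hspa8, Hsph1, Dnajb1, Hsp90aa1, Hsp90ab1, Stip1, Hspb1 and Hspd1, were given as a list and found by symbol among the 54385 gene identifiers of the deposited table. Each matched 1 identifier, and all 10 passed the filter on low counts that left 14553 genes for testing. The mice were C57BL/6N animals, 20 weeks old and on chow. All carried floxed alleles of Adcy3, which encodes the cyclic AMP-producing enzyme adenylyl cyclase 3. Controls (WT) have the genotype Adcy3-FL/FL/Adipoq-wt/wt, and knockouts (Adcy3 Ad-cKO, here cKO) have Adcy3-FL/FL/Adipoq-wt/cre, in which Cre recombinase is driven by the adiponectin gene promoter and acts in adipocytes, so other cells of the tissue keep the gene. The exception is WT replicate 4, titled as a control but entered with the Cre genotype; it was kept as WT by its title. Sample entries place the tissue between the shoulder blades (interscapular), while the design text reads inguinal.

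No chaperone transcript passed the test for a difference between cKO and WT (0 of 10, against 0.0687% of all genes tested, and 0.0481% with a higher level in cKO), and the groups overlapped for every one of them. The largest fitted values were those of the stress-inducible HSP70 genes Hspa1a (log2 fold change 1.08, 95% interval -0.08 to 2.25) and Hspa1b (1.07, -0.15 to 2.28) and of Hsph1 (0.93, -0.03 to 1.90), each with wide spread between libraries. The transcripts varied together from library to library: all 45 pairwise correlations were positive, with a median r of 0.77, and 0.63 once group means were subtracted. Dnajb1, an HSP40 partner of HSP70, had the lowest correlations with the others as measured over the 8 libraries. Its low value with Hspa1b rests on cKO replicate 4 and WT replicate 1, which were not left out together for its other pairs. With group means subtracted, some pairs of Hspd1 were lower still.

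Heat shock chaperones bind unfolded or immature proteins and keep them from aggregating. HSP70 proteins do so in cycles of ATP hydrolysis that are started by HSP40 co-chaperones and reset by nucleotide exchange factors, and Stip1 hands clients on from HSP70 to HSP90. The inducible members of this set are classical targets of heat shock factor 1 (Hsf1), which trimerises on inverted repeats of the letters GAA (TTC on the other strand) upstream of their start sites; brown fat is a tissue that itself produces heat.

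Sequences upstream of the start sites are shown because the inducible genes share these units and because Hspa1a and Hspa1b are near copies whose reads are hard to assign. RefSeq windows on GRCm38.p6 were given for 7 of the 10 members; Hsp90aa1, Hsp90ab1 and Hspa8 have none here. The 250 bases before the start of Hspa1a (chr17:34972157-34972406, minus strand) and of Hspa1b (chr17:34959239-34959488, minus strand) follow, 5′ to 3′, with the match to a pair of inverted units in capitals.
Hspa1a: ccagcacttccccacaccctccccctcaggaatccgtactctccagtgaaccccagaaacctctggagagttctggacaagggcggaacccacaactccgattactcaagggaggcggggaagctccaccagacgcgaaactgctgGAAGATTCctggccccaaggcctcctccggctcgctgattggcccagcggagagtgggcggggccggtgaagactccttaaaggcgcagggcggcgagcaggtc
Hspa1b: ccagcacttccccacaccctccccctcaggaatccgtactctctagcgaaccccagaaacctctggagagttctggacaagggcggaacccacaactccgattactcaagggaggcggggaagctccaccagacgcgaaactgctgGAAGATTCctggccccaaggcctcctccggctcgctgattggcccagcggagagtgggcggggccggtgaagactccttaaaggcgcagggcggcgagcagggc
The windows are identical at 247 of 250 positions. Counted from 1 at the 5′ end, the substitutions from Hspa1a to Hspa1b are C44T, T47C and T249G. The match lies 104 bases upstream of both starts. The coding sequences, 1923 bases in Hspa1a and 1926 in Hspa1b, are 99.6% identical over the aligned bases, whereas the stretches after the stop codon are 810 and 643 bases long.

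Shorter stretches of 30 bases around the matches of 3 more members show how the units are arranged: 1 pair in Hsph1 (chr5:149636351-149636380, minus strand), separate pairs in Hspb1 (chr5:135887801-135887830, plus strand) and overlapping pairs in Hspd1 (chr1:55088053-55088082, minus strand).
Hsph1: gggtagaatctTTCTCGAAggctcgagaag
Hspb1: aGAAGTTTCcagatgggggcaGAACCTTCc
Hspd1: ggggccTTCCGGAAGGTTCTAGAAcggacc
Capitals mark GAANNTTC or TTCNNGAA; each reads the same on both strands, and neighbouring matches can overlap. They start 33 bases upstream of 1 Hsph1 start and 54 upstream of another, 117 and 97 bases upstream of the Hspb1 start, and 144, 139 and 134 bases upstream of the inner of the Hspd1 starts. The Hsph1 starts used lie 40 and 61 bases inside the gene limits given below, and so does the match. Such a pair stood in at least 1 window of 5 of the 7 members with one. Counted by window, it stood in 6 of the 10 member windows and in 12.8% of all 32851 windows of 250 bases. The windows of Hspa1a and Hspa1b are near copies and both Hsph1 windows hold the same match, so these counts are not independent. A run of 3 alternating units (GAANNTTC continued by NNGAA, or TTCNNGAA continued by NNTTC) stood in 1 of the 10 member windows, that of the inner Hspd1 start. It stood in 0.466% of all windows. The windows of Dnajb1 and Stip1 held no match of either kind, which says only that these letters are not in those windows.

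Libraries held 10713043 to 32437214 estimated counts, and the members together took 0.275% to 0.429% of them. Levels are given as CPM, counts scaled to library size after TMM normalisation (trimmed mean of M values). Adcy3 averaged 103 ± 27.4 CPM over the controls and 21.4 ± 3.03 CPM over the knockouts (SD, n = 4 each; log2 fold change -2.26, edgeR adjusted p = 0.000925). WT replicate 4 held 118 CPM of Adcy3 despite its genotype entry, against 112, 118 and 61.7 CPM in WT replicates 1 to 3. The cKO libraries held 18.0 to 25.3 CPM. The brown adipocyte markers Ucp1, Fabp4 and Cidea were abundant in every library. Of the 10 genes of that marker list 0 were called; Prdm16, a brown fat transcription regulator, averaged 17.8 CPM over the controls and 30.7 CPM over the knockouts without overlap (edgeR adjusted p = 0.242), and Cox8b 446 and 336 CPM (adjusted p = 0.882). Summed transcripts of 14 skeletal muscle genes varied widely, between 74.0 and 8962 CPM in WT libraries and between 196 and 11375 CPM in cKO libraries, highest in WT replicate 4 and cKO replicate 1. Mitochondrially encoded genes took 31.2% to 31.7% of counts in cKO replicates 2, 3 and 4 and 24.7% to 27.8% in the other libraries. Whether the libraries stem from different mice is not in the labels, so the tests measure spread among these libraries, which may be technical. In bulk tissue, fewer cells of a type and less RNA per cell cannot be told apart.

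The housekeeping chaperones were far more abundant than the inducible HSP70 genes, and the inducible HSP90 gene stood between them. Per kilobase of exon, Hsp90ab1 (the constitutive cytosolic HSP90) led with a mean of 331 CPM per kb over the 8 libraries (range 275 to 411). Hspa8, the constitutive HSP70 also called HSC70, followed at 264 (188 to 345), and Hspd1, the mitochondrial chaperonin HSP60, at 224 (159 to 276). Hspb1, the small heat shock protein HSP25, stood at 112 CPM per kb (66.2 to 191) and the inducible HSP90 gene Hsp90aa1 at 91.1 (61.6 to 126). Stip1 had 38.2 (25.9 to 56.3), Hsph1 14.4 (6.30 to 29.2) and Dnajb1 11.02 (8.81 to 13.3). Hspa1b at 6.59 (2.54 to 14.7) and Hspa1a at 3.78 (1.48 to 7.65) were the lowest. Between neighbours in this order, only Hsp90aa1 and Stip1 had ranges that did not overlap. Within libraries the order was steadier: the higher neighbour exceeded the lower in all 8 libraries for 5 of the 9 neighbouring pairs. It did so in 6 for Hspa8 over Hspd1 and in 4 for Hsph1 over Dnajb1, a pair with no order by exon length. By the length of the longest transcript, Hsph1 averaged 22.0 and Dnajb1 11.8 CPM per kb, with Hsph1 lower in WT 3 (9.61 against 10.1). The pair at the bottom also varied most, with a highest-to-lowest ratio over libraries of 5.81 for Hspa1b and 5.18 for Hspa1a, against 1.49 for Hsp90ab1 and 1.51 for Dnajb1.

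**Figure D1:**
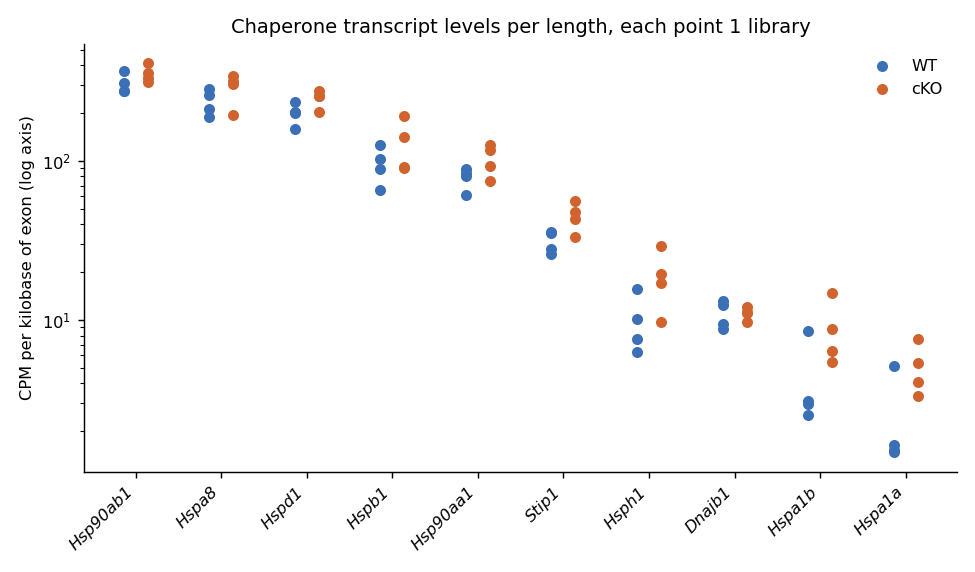
Transcript level of each chaperone gene in CPM per kilobase of exon (log axis), 1 point per library, WT and cKO side by side, genes ordered by mean. Levels run from 331 for Hsp90ab1 to 3.78 for Hspa1a, and the points of Hspa1b and Hspa1a spread most on the log axis.

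The inducible HSP70 pair lies close together on chromosome 17, Hspa1b (ENSMUSG00000090877) at 34956436 to 34959238 and Hspa1a (ENSMUSG00000091971) at 34969190 to 34972156, both on the minus strand of GRCm38. Hspa1a stood at 4.39, 4.86, 4.52 and 15.3 CPM in WT replicates 1 to 4 and at 15.9, 9.89, 12.2 and 22.7 CPM in cKO replicates 1 to 4, the order in which values of single libraries are given. Hspa1b stood at 7.12, 8.29, 8.69 and 24.0 CPM in the controls and at 18.0, 15.4, 24.8 and 41.3 CPM in the knockouts. For both genes WT replicates 1 to 3 were below every cKO library, and WT replicate 4 lay among the cKO libraries, so the groups overlapped through that library. Means were 7.27 ± 5.37 and 15.2 ± 5.60 CPM for Hspa1a (SD, n = 4; edgeR log2 fold change 1.08 ± 0.50 SE, adjusted p = 0.886) and 12.0 ± 8.01 and 24.9 ± 11.7 CPM for Hspa1b (1.07 ± 0.51 SE, adjusted p = 0.886). Without WT replicate 4 the log2 fold changes were 1.74 for Hspa1a (edgeR adjusted p = 0.0510) and 1.65 for Hspa1b (adjusted p = 0.460). Without cKO replicate 4 that of Hspa1b was 0.70.

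Because 63.8% of the 31-base sequences of Hspa1a also occur in Hspa1b, the division of reads between them is uncertain. Counted as 1 gene, the pair had a fitted log2 value of 1.07, cKO minus WT (edgeR adjusted p = 0.886), the same as each alone. Hspa1b contributed 53.2% to 67.1% of their sum in the 8 libraries.

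Hspa8 (chromosome 9, 40800984 to 40810087, plus strand), which folds new proteins and uncoats vesicles in unstressed cells, stood at 1126, 809, 913 and 1222 CPM in the controls and at 841, 1370.0, 1321 and 1483 CPM in the knockouts. The groups overlapped: cKO replicate 1 was lower than 3 of the 4 controls, and the other cKO libraries were above all controls. The log2 fold change was 0.30 ± 0.18 (SE, n = 4 each; edgeR adjusted p = 0.894), and 0.46 without cKO replicate 1. Hspa8 shares 44.8% of its 31-base sequences with other genes. Its processed copy Gm15459 (38.6% shared) held 1.59 CPM on average; the lincRNA Gm26825 (38.2% shared) was not analysed here.

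Hsph1 (chromosome 5, 149614287 to 149636376, minus strand), an HSP110 that exchanges nucleotide on HSP70, stood at 73.5, 55.0, 45.8 and 114 CPM in the controls and at 70.9, 124, 143 and 213 CPM in the knockouts. Again WT replicate 4 was the highest control and cKO replicate 1 the lowest knockout library, below WT replicate 1. Means were 72.0 ± 30.2 and 138 ± 58.5 CPM (SD, n = 4; edgeR log2 fold change 0.93 ± 0.41 SE, adjusted p = 0.886). Hsph1 shares no 31-base sequence with another gene.

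Dnajb1 (chromosome 8, 83608193 to 83612653, plus strand) stimulates the ATPase of HSP70. It stood at 42.5, 28.2, 30.3 and 39.6 CPM in the controls and at 35.8, 35.5, 39.0 and 31.3 CPM in the knockouts. The cKO values all lay inside the WT range, with WT replicate 1 highest and WT replicate 2 lowest. The log2 fold change was 0.01 ± 0.14 (SE, n = 4 each; 95% interval -0.30 to 0.32, edgeR adjusted p = 0.996); its sign turned in 4 alternatives, with values down to -0.07.

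Of the HSP90 genes, Hsp90aa1 (chromosome 12, 110690605 to 110702728, minus strand) stood at 318, 242, 353 and 331 CPM in the controls and at 295, 365, 463 and 496 CPM in the knockouts. Hsp90ab1 (chromosome 17, 45567775 to 45573271, minus strand) stood at 923, 828, 824 and 1110.3 CPM in the controls and at 941, 1003, 1069 and 1232 CPM in the knockouts. Single libraries made the overlap: cKO replicate 1 lay within the WT range for Hsp90aa1, and WT replicate 4 exceeded 3 of the 4 cKO libraries for Hsp90ab1. Fitted log2 fold changes were 0.38 ± 0.17 SE for Hsp90aa1 (edgeR adjusted p = 0.884) and 0.20 ± 0.13 SE for Hsp90ab1 (adjusted p = 0.896). The value of Hsp90ab1 was 0.31 without WT replicate 4 and 0.12 without cKO replicate 4. Hsp90aa1 shares 51.5% of its 31-base sequences with other genes, mostly the pseudogene Gm12346, itself at 0.140 CPM.

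Stip1 (chromosome 19, 7020702 to 7039967, minus strand), the adaptor between HSP70 and HSP90, stood at 74.3, 54.6, 59.3 and 75.04 CPM in the controls and at 69.9, 90.6, 101.3 and 119 CPM in the knockouts. Only cKO replicate 1 overlapped with the controls; the other 3 cKO libraries exceeded all of them. Means were 65.8 ± 10.4 and 95.1 ± 20.4 CPM, and the log2 fold change was 0.53 ± 0.16 (SE, n = 4 each; 95% interval 0.18 to 0.89, edgeR adjusted p = 0.805), the smallest adjusted p of the 10 members. When no filter on low counts was applied before the fit, edgeR called Stip1 at 0.51 (adjusted p = 0.0372), 1 of 93 genes called in that setting (0.262% of those tested).

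Hspb1 (chromosome 5, 135887919 to 135889563, plus strand), a small heat shock protein that holds unfolded clients without ATP, stood at 92.5, 68.2, 106 and 129 CPM in the controls and at 93.0, 94.9, 145 and 197 CPM in the knockouts. A pair of cKO libraries lay within the WT range and a pair above it. The log2 fold change was 0.42 ± 0.28 (SE, n = 4 each; edgeR adjusted p = 0.901), and 0.17 without cKO replicate 4. Its processed copy Hsp25-ps1, with which it shares 52.3% of its sequence, was at 0 in all libraries.

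Hspd1 (chromosome 1, 55077835 to 55088243, minus strand) stood at 625, 529, 419 and 541 CPM in the controls and at 539.9, 729, 676 and 677 CPM in the knockouts. Replicates 2, 3 and 4 of cKO were above every control, and cKO replicate 1 was level with WT replicate 4. The log2 fold change was 0.31 ± 0.14 (SE, n = 4 each; edgeR adjusted p = 0.884). Hspe1, the HSP10 lid of the same chaperonin, is transcribed away from Hspd1 from a neighbouring start and stood at 137, 134, 133 and 140 CPM in the controls and 99.3, 160, 182 and 145 CPM in the knockouts. Its controls were tightly grouped within the cKO range (log2 fold change 0.11, edgeR adjusted p = 0.954).

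**Figure D2:**
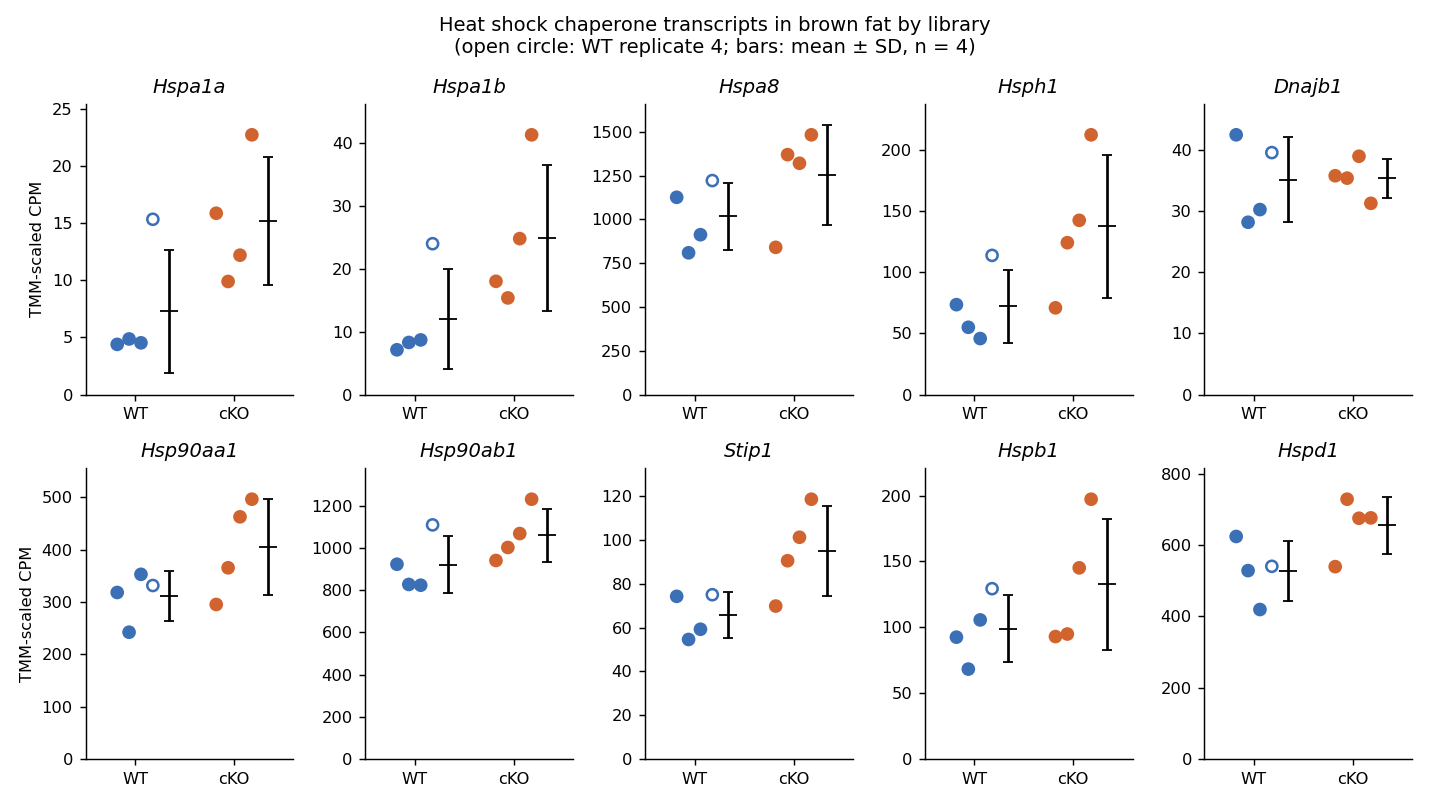
TMM-scaled CPM of each chaperone gene in the 4 WT and 4 cKO libraries (points), with bars for the mean ± SD of each group and WT replicate 4 drawn as an open circle. Each panel starts at 0; the open circle lies well above the other controls for Hspa1a (15.3 CPM) and Hspa1b (24.0 CPM).

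Across the 10 members, 3 had an unadjusted edgeR p of at most 0.05 (Hsp90aa1, Stip1 and Hspd1), all with a higher mean in cKO; of all genes tested, 5.60% had such a p and 2.15% had it with a higher mean in cKO. Groups did not overlap for 0 of 10 members, against 3.50% of all genes in either direction and 1.23% with cKO higher. All 10 fitted log2 fold changes were above 0, with a median of 0.40; 51.8% of all genes were above 0 and their median was 0.01. Since the members vary together, these 10 signs are not independent observations. DESeq2 called 0 members against 0.316% of all genes (6 at an unadjusted p of at most 0.05, where 5.62% of all genes were), and limma-voom called 0 against 0.0687% (5 members, against 5.63%). With WT replicate 4 and cKO replicate 1 both left out, the median of the members was 0.64, 9 of 10 reached an unadjusted p of at most 0.05 (7.74% of all genes) and 0 were called (0.0950% of all genes), the lowest edgeR adjusted p being 0.106. Log2 fold changes were then 1.71 for Hspa1a, 1.77 for Hspa1b, 1.46 for Hsph1, 0.37 for Hsp90ab1, 0.56 for Hspa8 and 0.72 for Hspb1. That alternative was chosen after seeing the data, as these 2 libraries hold the most muscle transcripts. They are also the libraries through which the groups overlap for most members, so leaving them out had to enlarge the differences, and these values support nothing further.

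**Figure D3:**
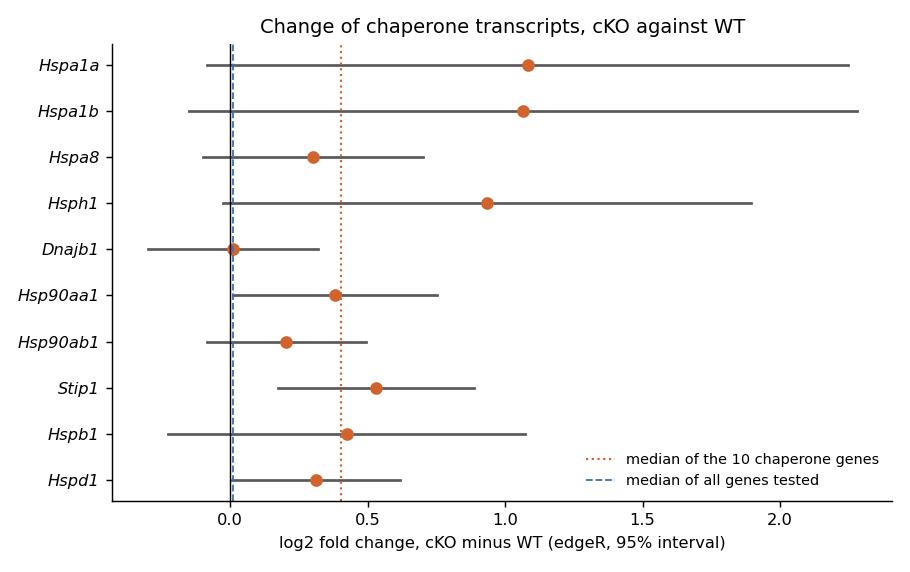
Fitted log2 fold change of each chaperone gene, cKO minus WT (edgeR, points with 95% intervals), with the median of the 10 genes and of all genes tested as vertical lines. Intervals of Hspa1a, Hspa1b and Hsph1 are the widest, and that of Dnajb1 is centred near 0.

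Sorted by genotype entry in place of title, the 3 libraries without Cre and the 5 with it did not overlap for 3 of the 10 members, all higher with Cre; over all genes the share was 4.76% in either direction and 2.27% higher with Cre. Hspa1a ran from 4.39 to 4.86 CPM without and from 9.89 to 22.7 CPM with Cre, Hspa1b from 7.12 to 8.69 and from 15.4 to 41.3 CPM, and Hsp90ab1 from 824 to 923 and from 941 to 1232 CPM. The other 7 members overlapped. Hspa1a and Hspa1b share much of their sequence, so the 3 members are not independent observations. Fitted with WT replicate 4 among the cKO libraries, Hspa1a came to 1.74 on the log2 scale (edgeR adjusted p = 0.0733) and Hspa1b 1.63 (adjusted p = 0.664). Under that assignment 0 members were called, and 1 gene in all (0.00665%). Which of the title and the genotype entry is right for this library cannot be told from the labels. Its Adcy3 level was within the range of the other controls and above every cKO library.

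The inducible genes were also set against their constitutive relatives within each library, which removes scaling between libraries. Hspa1a and Hspa1b together amounted to 1.02%, 1.62%, 1.45% and 3.22% of the CPM of Hspa8 in WT and to 4.03%, 1.84%, 2.80% and 4.32% in cKO. WT replicate 4 was again inside the cKO range. Geometric means were 1.67% and 3.08%, a difference of 0.89 on the log2 scale (exact permutation test, two-sided, p = 0.114, adjusted over the 2 ratios p = 0.229; the smallest p that 4 against 4 libraries allow is 0.0286). Hsp90aa1 amounted to 34.5%, 29.3%, 42.8% and 29.9% of Hsp90ab1 in WT and 31.4%, 36.4%, 43.3% and 40.3% in cKO. These ranges overlapped almost fully, at a log2 difference of 0.16 (exact permutation p = 0.343, adjusted p = 0.343).

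Libraries differed from each other in the whole set at once. The summed CPM of the 10 members was 3287, 2627, 2763 and 3602 in WT and 2920.5, 3838, 3993 and 4512 in cKO. cKO replicate 4 was the highest library for 8 of the 10 members, the exceptions being Dnajb1 and Hspd1. WT replicate 2 was the lowest for 5 members and among the 3 lowest for all 10. cKO replicate 1 was among the 3 lowest libraries for 6 members, apart from the 3 other knockout libraries. cKO 3 and cKO 4 were each among the 3 highest libraries for 9 members, and cKO 2 and WT 4 for 5 each. cKO 2, 3 and 4 had the largest mitochondrial shares of counts, above the 27.8% of WT 4. With mitochondrially encoded genes removed before scaling, the median of the members was 0.41 and the same 3 members had an unadjusted p of at most 0.05.

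**Figure D4:**
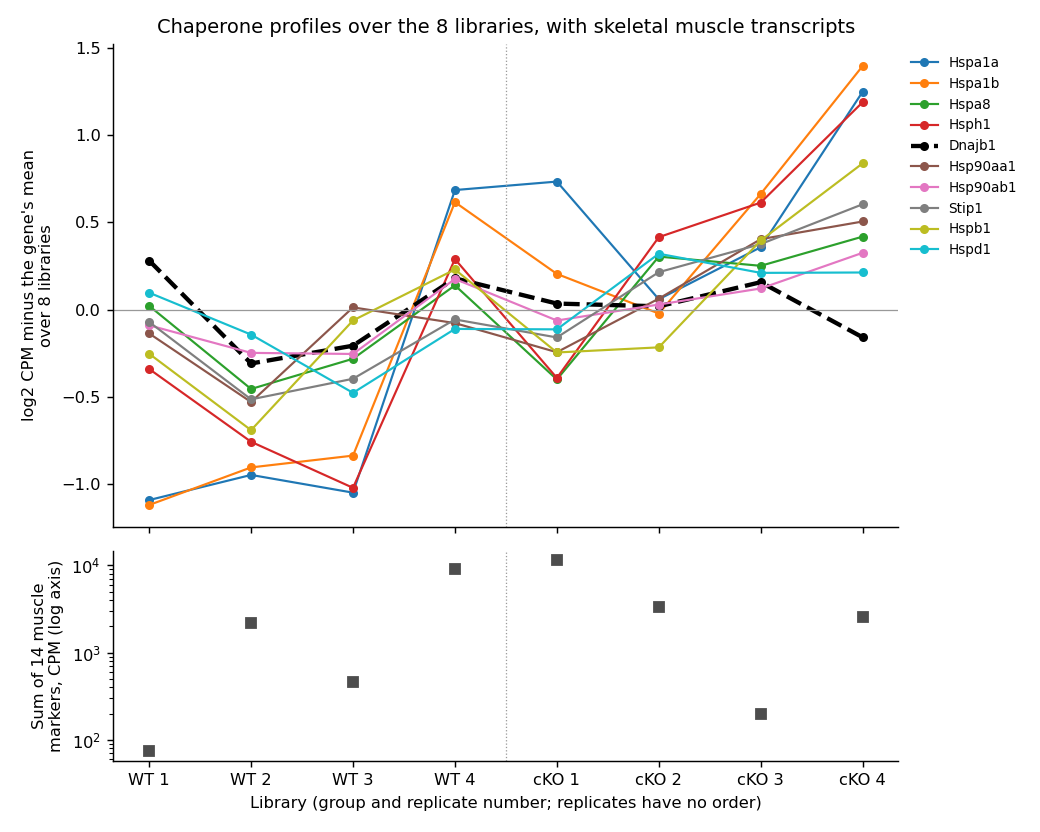
Upper panel: log2 CPM of each chaperone gene minus its mean over the 8 libraries, with Dnajb1 as a black dashed line. Lower panel: summed CPM of 14 skeletal muscle genes in the same libraries (log axis). Most lines peak in cKO 4 and are low in WT 2 and WT 3, while Dnajb1 is below its mean in cKO 4, and the muscle sum is highest in WT 4 and cKO 1.

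Over the 8 libraries all 45 pairs of members had a positive Pearson r of log2 CPM, from 0.11 to 0.96. By exact permutation tests adjusted over the 45 pairs, 21 pairs passed for r, 14 for Spearman's rho and 13 for both. With group means subtracted, which removes the difference between WT and cKO, the median r was 0.63 and 44 of 45 pairs stayed positive. For comparison, the r of each member with the 14543 genes outside the set had a median between -0.05 and 0.01, and r reached 0.8 for 0.523% to 4.41% of these genes, depending on the member; among the 45 pairs, 18 reached it.

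The highest r were those of Hsph1 with Hsp90ab1, Hspa1a with Hspa1b and Hsph1 with Stip1. Hsph1 and Hsp90ab1 had r = 0.961 (exact permutation p = 0.000446, adjusted p = 0.0100; rho = 0.905, exact p = 0.00456, adjusted p = 0.0272), and r = 0.904 without cKO 4 and WT 3, the libraries farthest from the median of Hsph1. Hsph1 and Stip1 had r = 0.956 (exact permutation p = 0.000149, adjusted p = 0.00670; rho = 0.976, exact p = 0.000397, adjusted p = 0.0179), and 0.922 without the same libraries. With group means subtracted these values were 0.953 and 0.926. Next came Hspa1b with Hsp90ab1 (r = 0.917, exact permutation p = 0.00218, adjusted p = 0.0167; rho = 0.857, exact p = 0.0107, adjusted p = 0.0344; r = 0.956 without cKO 4 and WT 1). Hsp90aa1 with Hspb1 had r = 0.912 (exact permutation p = 0.00216, adjusted p = 0.0167; rho = 0.881, exact p = 0.00724, adjusted p = 0.0272), and 0.720 without cKO 4 and WT 2. Hspa8 and Stip1 had r = 0.907 (exact permutation p = 0.00248, adjusted p = 0.0167; rho = 0.952, exact p = 0.00114, adjusted p = 0.0257), and 0.942 without WT 2 and cKO 1.

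Hspa1a and Hspa1b had r = 0.961 (exact permutation p = 0.000992, adjusted p = 0.0149; rho = 0.881, exact p = 0.00724, adjusted p = 0.0272), and 0.931 without WT 1 and WT 3; as they share reads, part of this is not independent. Other pairs rested on the extreme libraries. Hspb1 and Stip1 went from r = 0.823 (exact permutation p = 0.0114, adjusted p = 0.0322; rho = 0.786, exact p = 0.0279, adjusted p = 0.0739) to 0.446 without cKO 4 and WT 2. The HSP90 genes, Hsp90aa1 and Hsp90ab1, went from 0.747 (exact permutation p = 0.0329, adjusted p = 0.0592; rho = 0.619, exact p = 0.115, adjusted p = 0.185) to 0.353 without the same libraries.

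As measured, Dnajb1 had the lowest correlations. Its 9 values of r with the other members ran from 0.11 to 0.40 with a median of 0.28, and 0 passed the test, whereas the 36 pairs without it had a median of 0.80 (0.35 to 0.96). Against the mean of the other 9 members, Hsp90ab1 had the highest r, 0.975, followed by Hsph1 at 0.955, Stip1 at 0.931 and Hspa1b at 0.911. Hspb1, Hspa8, Hspa1a and Hsp90aa1 lay between 0.849 and 0.799, Hspd1 at 0.635 and Dnajb1 at 0.247. All pairs of Dnajb1 were also taken without the 2 libraries farthest from the median of the first gene of the pair. Its r then rose with Hspa1b, from 0.11 to 0.986 (without cKO 4 and WT 1), and with Hspa1a, from 0.16 to 0.46. With every other member it fell, to between -0.19 (Hsp90aa1) and 0.34 (Hspd1). The low value with Hspa1b thus rests on cKO 4 and WT 1. Different libraries were left out for the other pairs: WT 1 and WT 3 for Hspa1a, WT 2 and WT 1 for the rest. Those pairs all kept cKO 4, so these values do not set Hspa1b apart from the other members. Among the controls Dnajb1 was lowest in WT 2 and WT 3, where most members were low too. In cKO replicate 4, where 8 members peaked, it was at its lowest knockout value, 31.3 CPM. With 4 libraries a group, no correlation within a group is given. Shared depth, scaling and tissue make-up enter all these correlations, and their part was not tested.

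**Figure D5:**
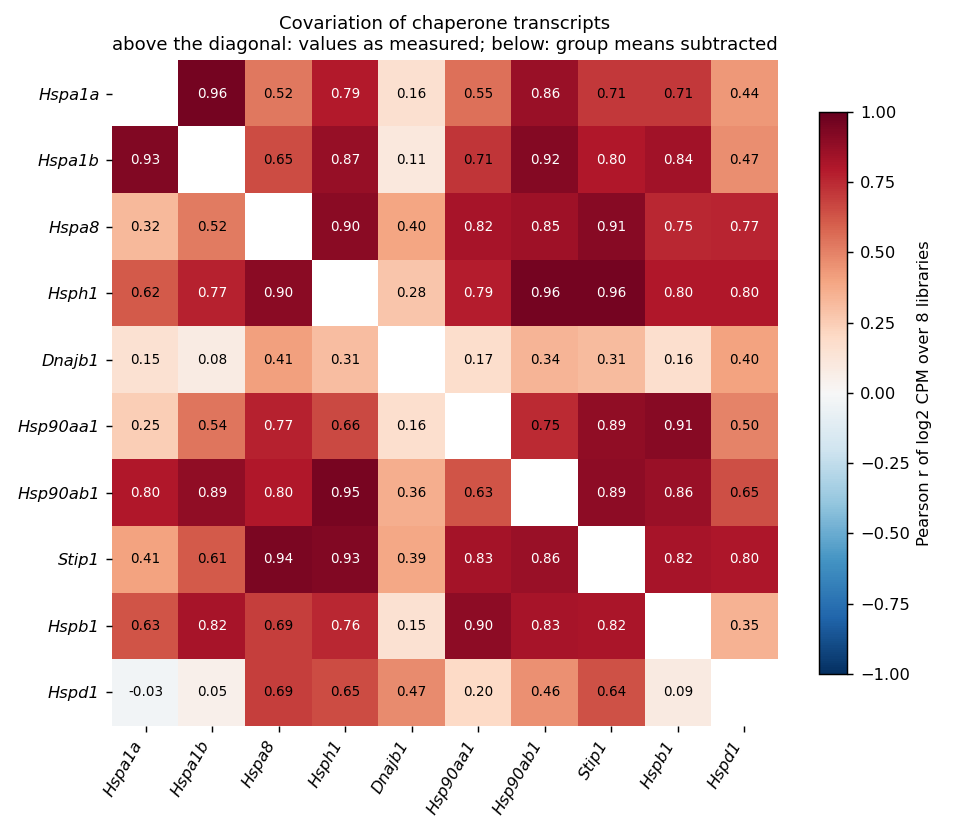
Pearson r of log2 CPM for each pair of chaperone genes over 8 libraries, as measured above the diagonal and with group means subtracted below it. The row and column of Dnajb1 are pale (0.11 to 0.40 as measured), while Hsph1 reaches 0.961 with Hsp90ab1 and 0.956 with Stip1.

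Among 9917 other genes with at least 5 CPM on average, the 10 whose group-centred levels were most like the mean of the members were P4ha1, Tesk1, Ahsa2, Ufd1, Ackr3, Chordc1, Ppme1, Sf3b6, Prr14 and Pnrc2, with r from 0.992 down to 0.932 over 8 libraries. This ranking has no test. P4ha1, a subunit of collagen prolyl 4-hydroxylase, led with 35.8, 27.9, 31.4 and 51.7 CPM in the controls and 40.9, 51.2, 56.5 and 72.1 CPM in the knockouts. Like Hsph1 it was lowest in WT 2 and WT 3 and highest in cKO 4. Its log2 fold change was 0.59 (edgeR adjusted p = 0.882). Ahsa2 and Chordc1 belong to HSP90 co-chaperone families. Of the co-chaperones in the list described next, Dnaja1, an HSP40, ranked 29 in likeness, and Ahsa1, an activator of the HSP90 ATPase, ranked 31. Ranks in that list ran from 6 (Chordc1) to 8783 (Bag1, r = -0.43). Most of its ranked genes had a positive r with the members, and a minority, Bag1 among them, had a negative r.

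Of 31 further cytosolic co-chaperones, 0 were called, 20 had a positive log2 fold change, and the median was 0.06. At an unadjusted edgeR p of at most 0.05, 2 were higher in cKO, the HSP110-family gene Hspa4l (49.5 ± 8.90 and 68.9 ± 17.3 CPM, SD, n = 4) and the HSP40 gene Dnaja4 (28.8 ± 3.31 and 35.1 ± 3.83 CPM), and 1 was lower, the nucleotide exchange factor Bag1 (183 ± 25.8 and 153 ± 8.75 CPM). Dnaja1 and St13, the most abundant besides Bag1, had log2 fold changes of 0.30 (edgeR adjusted p = 0.901) and 0.09. Hsf1 itself stood at 23.2 ± 2.46 CPM in the controls and 24.4 ± 1.31 CPM in the knockouts (log2 fold change 0.08, 95% interval -0.16 to 0.32), Hsf2 had 0.24, and the factor's binding protein Hsbp1 had -0.12; 0 of the 4 genes of that list had an unadjusted p of at most 0.05.

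For the cytosolic chaperonin and prefoldin, which fold actin and tubulin, 5 of 14 genes were positive with a median of -0.02, and 0 had an unadjusted p of at most 0.05; the most abundant, Tcp1, Cct6a and Cct3, had log2 fold changes of 0.05, 0.15 and 0.09, and those with the smallest p, Pfdn6 and Pfdn1, had -0.31 and -0.17. Of 13 mitochondrial chaperones and proteases 8 were positive (median 0.04); the mitochondrial HSP70 gene Hspa9 had 927 ± 106 CPM in the controls and 1005 ± 98.0 CPM in the knockouts, and the protease Lonp1 had the list's only unadjusted edgeR p of at most 0.05, lower in cKO at -0.25. Trap1, Afg3l2 and Spg7 had 0.04, 0.03 and -0.18. Endoplasmic reticulum chaperones were positive for 13 of 16 genes (median 0.14), with 0 at an unadjusted p of at most 0.05 and 0.18 for Hspa5, the lumenal HSP70 also called BiP. Serpinh1, Canx and Manf had 0.10, 0.20 and 0.24. Oxidative and metal stress genes were positive for 7 of 8 (median 0.15), with Gclm, a subunit of the enzyme for glutathione synthesis, at 0.33; Gclc, Txnrd1, Mt1 and Mt2 had 0.18, 0.14, 0.07 and 0.19. In the immediate early genes, which respond within minutes to many stimuli, 2 of 10 measured genes were positive (median -0.17): Fos stood at 0.551 ± 0.148 CPM in the controls and 1.32 ± 0.928 CPM in the knockouts (SD, n = 4), and Ier2 had -0.50. Levels of Fos were low throughout, and its knockout mean leaned on cKO 1 (2.64 CPM). The other knockouts had 0.80, 0.57 and 1.26 CPM, and the controls 0.40 to 0.75 CPM. Dusp1, Jun and Zfp36 had -0.20, 0.15 and -0.29. None of these lists had a called gene by edgeR.

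Of the small heat shock protein genes outside the set, Hspb6, Hspb7 and Cryab followed skeletal muscle transcripts; neither Hspb2 (r = 0.792, exact permutation p = 0.0202, adjusted p = 0.0756) nor Hspb8 (r = -0.14) passed the same test, nor did any of the 10 members. Hspb6 stood at 11.01, 29.1, 14.1 and 98.6 CPM in the controls and 153, 37.5, 14.7 and 29.5 CPM in the knockouts, and Cryab, the lens and muscle protein alpha-B crystallin, at 15.9, 27.9, 27.8 and 70.8 CPM in the controls and 111, 29.2, 20.0 and 27.1 CPM in the knockouts. Both were highest in WT replicate 4 and cKO replicate 1, where the 14 muscle markers summed to 8962 and 11375 CPM. Over 8 libraries and 15 relations tested, the log2 muscle sum had r = 0.984 with Hspb7 (exact permutation adjusted p = 0.00112; rho = 0.976, adjusted p = 0.00298), 0.925 with Hspb6 (adjusted p = 0.00949; rho = 0.976, adjusted p = 0.00298) and 0.849 with Cryab (adjusted p = 0.0342; rho = 0.929, adjusted p = 0.0112). Without WT 1 and cKO 3, the libraries farthest from the median muscle sum, r was 0.997, 0.961 and 0.796. For the 10 members r ran from -0.27 to 0.59 and 0 passed; the highest was Hspa1a (exact permutation p = 0.127, adjusted p = 0.382; rho = 0.690, adjusted p = 0.208), whose WT outlier is the control with the most muscle transcripts. Without WT 1 and cKO 3 the r of Hspa1a was 0.693 and that of Dnajb1 turned from -0.27 to 0.738. Of the other small heat shock protein genes, 5 of 8 could be tested, Hspb8 had 81.2 ± 10.9 and 98.2 ± 9.70 CPM, and Cryaa was at 0 in all libraries.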

How the data were processed

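The NEBNext Ultra II RNA kit was used for paired-end sequencing, as the labels state. The authors deposited 1 table of estimated counts for 54385 gene identifiers; the submitters' processing notes list StringTie, Salmon, edgeR and GRCm38, with annotation release, versions and strand setting not given in the sources used here. Estimated counts divide reads among similar transcripts, so near-identical genes such as Hspa1a and Hspa1b depend on that division. GENCODE M21 named 54131 identifiers (99.5%) and gave exon lengths and the share of 31-base sequences found in other genes.

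Counts were rounded, filtered with filterByExpr, scaled by TMM and compared by the robust quasi-likelihood test of edgeR 4.0.16 in R 4.3.3 (alternatives: limma 3.58.1, DESeq2 1.42.0), adjusted by Benjamini-Hochberg over 14553 genes at 0.05, with group as the only term. The scripts were tested on simulated data. A prior count of 2 was used for log2 CPM. Errors are SDs over 4 libraries unless marked SE. Correlations, ratios and their exact permutation tests used Python 3.11.15. No library pair within a group agreed within sampling noise (smallest chi-square per degree of freedom 14.5).

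All 10 members are named. From each other list the rule names every called gene or, with none called, up to 3 with the highest mean and up to 2 with the smallest p, and it adds the 10 genes most like the members. Lists of cell markers other than brown adipocyte and muscle (macrophage, lymphocyte, endothelial, fibroblast, mural, Schwann and red blood cell) had 0 called genes and 0 with an unadjusted p of at most 0.05; their genes, and the muscle genes, are not named singly. Genes of these lists named beyond the rule (Hspe1, Hspb7, Cryaa, Ahsa1) were picked with their values in view. The members and lists were chosen with earlier results of these data known. Alternatives were other size factors, tools and filters, a replicate block, mitochondrially encoded genes removed, WT replicate 4 moved, single libraries left out, and summing of similar genes.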

Additional observations from a re-analysis of the deposited data

Results flagged for a closer look

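WT replicate 4 was far from the other controls for both inducible HSP70 genes. Hspa1a stood at 15.3 CPM there, against 4.39 to 4.86 CPM in the other 3 WT libraries, a gap of 0.957 of the group's whole range. Hspa1b stood at 24.0 CPM, against 7.12 to 8.69 CPM, a gap of 0.907. Both gaps exceed Dixon's 95% critical value for 4 samples; 28 groups were examined, and chance alone flags about 1 in 20. The genes share most of their coding sequence, so these are not independent flags. The same library carries the Cre in its genotype entry and held 8962 CPM of muscle transcripts, the most among the controls; the part of either was not tested.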

How the results depend on the processing

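Chaperone calls by edgeR stayed at 0 in all settings run except without a count filter, where Stip1 was called (0.51, adjusted p = 0.0372). More genes were tested there, 35502, and the unadjusted edgeR p of Stip1 was 8.5e-05, against 0.0069 in the main setting. The reason for its fall was not tested. Dnajb1, near 0, turned negative without a filter (-0.011), without WT replicate 2 (-0.07), without WT replicate 3 (-0.05) and without cKO replicate 3 (-0.04), its range with each library left out being -0.073 to 0.12; the other 9 members were positive throughout. Over all genes, 10 calls became 46 with DESeq2 (20 higher, 26 lower), 93 without a filter (42 higher, 51 lower), 1 with WT replicate 4 moved to cKO (0 higher, 1 lower) and 8 to 14 with each library left out; the cause was not tested. The median pairwise r of 0.77 was 0.63 with group means subtracted, and 0.671 to 0.795 with each library left out, lowest without cKO replicate 4. The log2 difference of the HSP70 ratio was 1.21 with WT replicate 4 moved (exact permutation p = 0.0179, unadjusted and the smallest that 3 against 5 libraries allow) and 0.65 to 1.201 with each library left out; that of the HSP90 ratio, likewise, was 0.09 to 0.27, and 0.03 with WT replicate 4 moved (exact permutation p = 0.804). By the length of the longest transcript, Hsp90ab1 stood at 393 and Hspa8 at 359.6 CPM per kb, with the order of the members by mean as before. Summing each member with genes sharing its sequence, added after seeing the data, left the median at 0.40. Log2 fold changes fell from 1.08 for Hspa1a and 1.07 for Hspa1b to 0.95 for both, and from 0.53 to 0.46 for Stip1. Those of the other members changed little.

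Replicate numbers did not pair the samples: deviations of same-numbered WT and cKO libraries correlated at -0.46, 0.03, 0.41 and 0.0016, and WT 1 correlated best with cKO 3 (0.46) and WT 4 with cKO 1 (0.47). With the replicate block edgeR called 7 genes and 0 members, 6 members had an unadjusted p of at most 0.05 and the lowest adjusted p was 0.0756. Of the 10 members, Hspa1a and Hspa1b rest on the fewest reads.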
